A study of Mus musculus with 6 samples.

Results

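The data cover 10 genes for transcription factors of muscle mesenchymal progenitors, out of 54100 genes in the deposited table. They are Hic1, Tcf21, Osr1, Prrx1, Twist1, Twist2, Meox1, Meox2, Runx1 and Snai2, chosen by symbol for their known roles in the identity, quiescence or activation of these cells, and each symbol stood on 1 row. The cells were fibro-adipogenic progenitors (FAPs), sorted as positive for the receptor Pdgfra from the plantaris, a calf muscle, of C57BL/6 mice. There were 3 libraries labelled sham and 3 labelled overloaded, each from a tube of 1000 sorted cells, prepared by a published protocol of the CEL-Seq2 type that reads transcripts near their 3' end. The way the load was applied, its duration, the age of the mice and whether libraries came from separate animals were not given in the sources used here. Hence the p-values reflect the spread among the 6 libraries, part of which may be technical.

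FAPs are connective tissue cells that lie between muscle fibres, rest in healthy muscle, and divide and lay down matrix when the muscle is injured or loaded. Several factors studied here pattern embryonic mesenchyme and stay on in adult fibroblasts: the homeobox factors Prrx1, Meox1 and Meox2, the basic helix-loop-helix factors Twist1, Twist2 and Tcf21, and the zinc finger factor Osr1. Hic1 is a repressor that keeps mesenchymal progenitors of mouse muscle at rest, Snai2 (Slug) is a repressor known from epithelial-mesenchymal transition, and Runx1 is a runt-domain factor best known from blood formation that binds DNA together with the partner CBF-beta.

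Runx1 and Meox1 rose in overloaded FAPs, Hic1 fell, and the other factors did not pass the test. Runx1 was 4.58-fold higher, Meox1 was 3.43-fold higher and Hic1 was 1.61-fold lower by edgeR's quasi-likelihood test, with Benjamini-Hochberg adjustment over the 7207 genes tested and a threshold of 0.05 on the adjusted p. Tcf21 had too few counts to test. Of the 9 factors tested, 3 were called, or 33.3%, beside 29.3% of all genes tested. The 2 called higher stand beside 15% of all tested genes called higher, and the 1 called lower beside 14.3% called lower. The 2 groups of libraries did not overlap in 4 of the 9, Runx1, Meox1, Hic1 and Twist1, beside 41.5% of all tested genes. The share called among the factors was thus close to that among all genes, and the median log2 fold change was -0.10 for the 9 factors and -0.02 for all genes tested.

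Library totals were 500402 to 754456 counts for sham and 850857 to 1124210 counts for overloaded cells (exact two-sided permutation p = 0.1, the smallest that 3 against 3 can give). The 10 genes together held 310 to 499 counts in sham and 721 to 967 in overloaded libraries. Levels are given as CPM, counts scaled to a total of 1000000 after correction for library composition. They serve to compare libraries for 1 gene, not genes with each other. The FAP markers Pdgfra, Ly6a, Cd34, Dcn, Lum and Gsn had counts in every library. Their sum lay between 37311 and 50982 CPM in sham and between 18247 and 26210 CPM in overloaded libraries. Of the 6, 3 were called lower (Cd34, Dcn and Gsn), beside 14.3% of all tested genes. Most of the sum was Dcn, at 20310 ± 1611 and 8208 ± 476 CPM, and Gsn, at 19241 ± 5199 and 9141 ± 2912 CPM, while Pdgfra (log2 fold change -0.53, edgeR adjusted p = 0.0624), Lum (-0.45, 0.105) and Ly6a (0.13, 0.668) were not called. For any gene in bulk samples, fewer cells of a type and less RNA per cell cannot be told apart. Olfactory and vomeronasal receptors, genes of sensory neurons, took 778 to 1785 of every 1000000 counts in sham and 230 to 1080 in overloaded libraries (exact two-sided permutation p = 0.2).

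**Figure D1:**
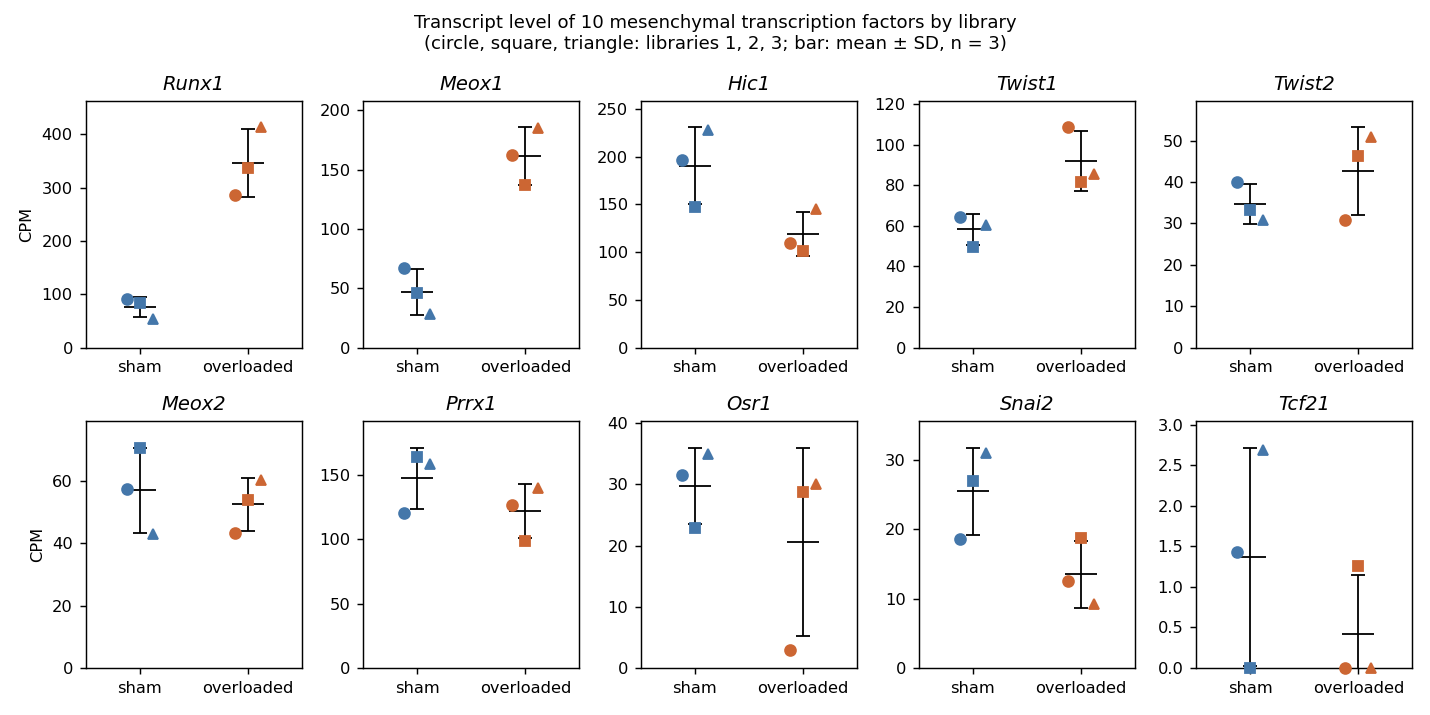
Level in CPM (vertical axes, linear, from 0, a separate scale for each gene) of the 10 factors in 3 sham and 3 overloaded libraries, with the mean and SD of each group. Runx1 and Meox1 stood clearly apart between the groups, Hic1 and Twist1 did not overlap but came close to each other, and the remaining genes overlapped.

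The promoters of Runx1 are shown because this gene changed most among the factors, and that of Meox2 because it holds the same RUNX letters although its transcript did not pass the test. The sequences are from RefSeq on GRCm38.p6, run from 250 bases before to 50 bases after an annotated start, and are printed on the strand of the gene. Capitals mark the letters TGTGGT or their reverse complement ACCACA, the core bound by RUNX factors, and GGAATG or CATTCC, the core bound by TEAD factors. Runx1 is known to be transcribed from a distal and a proximal promoter. The distal window lies at chr16:92826025-92826324, minus strand, the proximal one at chr16:92697280-92697579, minus strand, and that of Meox2 at chr12:37108290-37108589, plus strand.
Runx1 distal: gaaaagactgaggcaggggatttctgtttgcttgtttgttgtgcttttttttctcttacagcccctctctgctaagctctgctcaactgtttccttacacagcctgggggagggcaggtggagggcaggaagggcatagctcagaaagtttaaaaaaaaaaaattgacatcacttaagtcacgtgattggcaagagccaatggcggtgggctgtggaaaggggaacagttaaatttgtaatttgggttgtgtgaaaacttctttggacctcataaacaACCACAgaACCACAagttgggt
Runx1 proximal: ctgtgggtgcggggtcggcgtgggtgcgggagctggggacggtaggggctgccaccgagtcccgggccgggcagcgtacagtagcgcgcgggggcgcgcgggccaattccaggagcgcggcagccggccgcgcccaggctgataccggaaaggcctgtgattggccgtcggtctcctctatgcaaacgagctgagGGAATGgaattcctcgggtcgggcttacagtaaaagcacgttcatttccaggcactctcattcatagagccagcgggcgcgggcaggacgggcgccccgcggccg
Meox2: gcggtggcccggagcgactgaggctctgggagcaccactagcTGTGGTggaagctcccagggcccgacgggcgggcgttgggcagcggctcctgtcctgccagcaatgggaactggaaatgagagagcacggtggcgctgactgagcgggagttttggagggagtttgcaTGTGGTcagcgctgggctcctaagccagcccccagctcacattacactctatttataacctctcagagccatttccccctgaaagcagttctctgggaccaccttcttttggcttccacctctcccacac
The distal Runx1 window held RUNX letters at positions 29 to 34 and 37 to 42, counted from 1 at the first base of the start, and the proximal one held TEAD letters at -55 to -50. The Meox2 window held RUNX letters at -208 to -203 and at -80 to -75, the latter overlapping an E-box (CANNTG, the core bound by basic helix-loop-helix factors) at -82 to -77. Among 32851 promoter windows of the same 300 bases, searched on both strands, 16.8% held the RUNX letters, 14.7% the TEAD letters and 72.3% an E-box. Windows were found for 7 of the 10 genes, all but Osr1, Meox1 and Snai2. Of the letters searched, E-boxes also stood in 1 Hic1 window and in the distal Runx1 window, and the Prrx1 window held TEAD letters and TAATTA, a core bound by homeobox factors, which 5.29% of all windows held. The AP-1 letters TGANTCA, present in 7.81% of all windows, were in none of them. The counts do not tell which start a transcript came from, since reads come from near its 3' end, and a match of letters is not a binding site.

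Runx1 (ENSMUSG00000022952, chromosome 16, 92601466 to 92826149 on GRCm38) stood at 90.2, 83.0 and 53.8 CPM in sham libraries 1 to 3 and at 287, 336 and 413 CPM in overloaded libraries 1 to 3. Each overloaded library was above every sham library, and the lowest overloaded level was more than the highest sham level by a wide margin. The means were 75.7 ± 19.3 and 345 ± 63.7 CPM (SD, n = 3 in each group), from 143 and 923 counts. The log2 fold change was 2.2 with a standard error (SE) of 0.24 (adjusted p = 3.43e-08 by edgeR). Among 7207 genes it ranked 52 by p and 110 by size of rise.

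Runx1 is a textbook gene of blood cells, so the leukocyte markers are given beside it. Ptprc, Cd68, Csf1r and Cd3e together reached 14.3 to 22.8 CPM in sham and 1.92 to 18.8 CPM in overloaded libraries (exact two-sided permutation p = 0.3), and Lyz2 and Adgre1 had 0 counts in all 6 libraries, where a floor of 3 counts over a group is 1.56 CPM for sham and 1.11 CPM for overloaded libraries. The ranges of the sum overlapped between the groups, and the part of such cells in the level of Runx1 was not tested.

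The partners and paralogues of Runx1 were examined next. Runx2, the runt-domain factor of bone formation, stood at 7.16, 16.6 and 41.7 CPM in sham and at 45.2, 92.8 and 113 CPM in overloaded libraries. The levels did not overlap, but sham library 3 came close to overloaded library 1, and Runx2 rose by 1.88 on the log2 scale (SE 0.49, adjusted p = 0.0115 by edgeR). With the share of olfactory and vomeronasal receptor reads as a covariate, its log2 fold change was 1.66 and its adjusted p 0.0761. Cbfb, which encodes the shared partner CBF-beta, stood at 153, 95.4 and 117 CPM in sham and at 200, 260 and 156 CPM in overloaded libraries. It rose by 0.74 (SE 0.24, adjusted p = 0.0190 by edgeR), and was not called without sham library 2, sham library 3 or overloaded library 2 (highest adjusted p 0.107). Runx3, the third runt-domain factor, held 8 and 4 counts in the sham and overloaded groups and was not tested.

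Meox1 (ENSMUSG00000001493, chromosome 11, 101877510 to 101894374), known to drive fibroblast activation in the mouse heart, stood at 67.3, 45.6 and 28.3 CPM in sham and at 163, 137 and 185 CPM in overloaded libraries. The groups did not overlap, and the 3 overloaded libraries lay close together while the sham libraries spread more widely for their level. Meox1 rose from a mean of 47.1 ± 19.6 to 161 ± 24.2 CPM, by a log2 fold change of 1.78 (SE 0.28, adjusted p = 1.13e-05 by edgeR). Its paralogue Meox2 (ENSMUSG00000036144, chromosome 12, 37108540 to 37179534), first described as a factor of growth-arrested vascular cells, stood at 57.3, 70.5 and 43.1 CPM in sham and at 43.3, 53.9 and 60.1 CPM in overloaded libraries. These ranges overlapped almost fully, with a log2 fold change of -0.10 and a 95% interval of -0.68 to 0.47 (edgeR adjusted p = 0.832). The direction turned without sham library 2 (0.066), without overloaded library 1 (0.052) and with the receptor read covariate (0.069).

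A comparison of the paralogues within each library needs no scaling between libraries. The log2 ratio of Meox1 to Meox2 counts, with 0.5 added to each, was 0.23, -0.62 and -0.60 in sham and 1.90, 1.33 and 1.61 in overloaded libraries. Meox2 held more counts than Meox1 in 2 of the 3 sham libraries, and Meox1 held more in all 3 overloaded libraries. The mean ratio differed by 1.94 between -0.33 ± 0.48 in sham and 1.61 ± 0.28 in overloaded libraries (exact two-sided permutation p = 0.1, the smallest possible, and 0.3 after adjustment over the 6 pairs compared).

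Hic1 (ENSMUSG00000043099, chromosome 11, 75164565 to 75169519) stood at 196, 147 and 227 CPM in sham and at 110, 102 and 145 CPM in overloaded libraries. The groups did not overlap, though sham library 2 and overloaded library 3 were almost level. The means were 190 ± 40.4 and 119 ± 22.9 CPM, and Hic1 fell by 0.69 on the log2 scale (SE 0.23, adjusted p = 0.0242 by edgeR). The call depended on the libraries: the adjusted p was 0.0746 without sham library 1, 0.163 without sham library 3, 0.0872 without overloaded library 1 and 0.0985 without overloaded library 2, and 0.134 with no filter on low counts, while the log2 fold change stayed below 0 in all 15 alternatives, between -1.07 and -0.52. Of the 6 FAP marker genes, 3 were also called lower, as given earlier, beside 14.3% of all tested genes. The part of these markers in the result was not tested.

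Genes tied to Hic1 were followed as well. Sirt1, a deacetylase gene that HIC1 represses in human cells and whose protein acts as its corepressor, stood at 123, 108 and 122 CPM in sham and at 38.5, 41.4 and 40.5 CPM in overloaded libraries. Its levels were nearly equal within each group and far apart between them, and it fell by 1.56 on the log2 scale (SE 0.26, adjusted p = 2.35e-05 by edgeR). Ackr3, a scavenging receptor for the chemokine CXCL12 that HIC1 also represses in human cells, stood at 462, 330 and 355 CPM in sham and at 116, 119 and 93.7 CPM in overloaded libraries, and fell by 1.80 (SE 0.22, adjusted p = 2.60e-07 by edgeR). Both were called in all 15 alternatives. Of 5 such genes listed, these were the 2 with enough counts to test. Both fell, beside 14.3% of all tested genes called lower. Of the rest, few counts were found, with 1 and 7 in the sham and overloaded groups for the receptor kinase gene Epha2 and 1 and 2 for its ligand gene Efna1. The paralogue Hic2 had 19 and 10 counts and was not tested.

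Of 7 genes for corepressors that HIC1 or Snail factors use, 1 rose, 2 fell and 4 were not called, beside 29.3% of all tested genes called, with a median log2 fold change of 0.22. A count of 3 in 7 is near that share. Hdac2, a histone deacetylase gene, rose by 0.96 (SE 0.23, adjusted p = 0.00175 by edgeR) from 135 ± 23.3 to 261 ± 54.7 CPM. Besides Sirt1, which stands on both lists, Ezh2, the histone H3 lysine 27 methyltransferase gene, fell by 1.29 (SE 0.32, adjusted p = 0.00249 by edgeR) from 64.6 ± 6.72 to 26.4 ± 8.62 CPM. With the receptor read covariate neither Hdac2 (log2 fold change 0.72, edgeR adjusted p = 0.174) nor Ezh2 (-0.89, 0.193) was called, in a fit that called 869 genes in place of 2111. Ctbp1, a corepressor that binds HIC1 directly, stood at 66.9 ± 7.04 and 77.7 ± 11.3 CPM (log2 fold change 0.22, edgeR adjusted p = 0.566).

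Twist1 (ENSMUSG00000035799, chromosome 12, 33957671 to 33959829), a factor of cranial and limb mesenchyme, stood at 64.4, 49.8 and 60.5 CPM in sham and at 109, 81.5 and 85.6 CPM in overloaded libraries. Every overloaded library was above every sham library, yet the gene narrowly missed the threshold, with a log2 fold change of 0.65 (SE 0.26, 95% interval 0.14 to 1.16, edgeR adjusted p = 0.0561). It was called with a minimum count of 30 (adjusted p = 0.0465) and without overloaded library 2 (0.0480), and over the 15 alternatives its adjusted p ranged from 0.0465 to 0.432. Twist2 (ENSMUSG00000007805, chromosome 1, 91801461 to 91848028), its close paralogue, stood at 40.1, 33.2 and 30.9 CPM in sham and at 30.8, 46.4 and 50.9 CPM in overloaded libraries. Overloaded library 1 held the lowest level of all and the other two the highest, with a log2 fold change of 0.28 (95% interval -0.35 to 0.92, edgeR adjusted p = 0.556). The log2 ratio of Twist1 to Twist2 was 0.67, 0.57 and 0.95 in sham and 1.80, 0.80 and 0.74 in overloaded libraries, so that only overloaded library 1 lay above the sham range (exact two-sided permutation p = 0.4, adjusted 0.8). The difference in ratio was 0.38, and 0.041 without overloaded library 1.

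The E proteins with which Twist and Tcf21 factors pair showed 1 call among 3, beside 29.3% of all tested genes called. Tcf4, an E protein gene, fell by 0.70 on the log2 scale (SE 0.20, adjusted p = 0.00697 by edgeR) from 847 ± 106 to 522 ± 38.7 CPM, and was not called without sham library 3, with no filter or with the receptor read covariate (highest adjusted p 0.154). The other E protein genes, Tcf3 (log2 fold change -0.05) and Tcf12 (-0.07), were not called. Msc, another basic helix-loop-helix gene, stood at 19.1 ± 8.42 and 31.6 ± 15.1 CPM and was not called (edgeR adjusted p = 0.166).

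**Figure D2:**
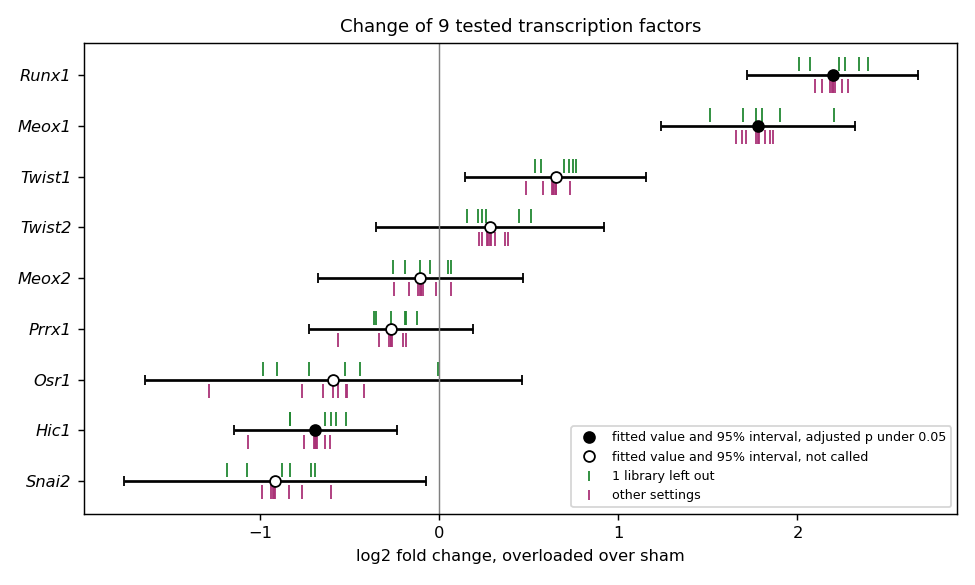
Log2 fold change, overloaded over sham (horizontal axis), of the 9 tested factors: circles with bars are the fitted values with 95% intervals, filled where called, green ticks are fits with 1 library left out and purple ticks are fits under other settings. Runx1 and Meox1 stayed above 1.5 in every fit shown, Hic1 stayed below 0, and Osr1 moved to 0 when overloaded library 1 was left out.

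Prrx1 (ENSMUSG00000026586, chromosome 1, 163245119 to 163313710), a homeobox factor that marks limb mesenchyme and adult fibroblasts, stood at 120, 164 and 159 CPM in sham and at 127, 99.1 and 140 CPM in overloaded libraries. The ranges overlapped and the log2 fold change was -0.27 (95% interval -0.72 to 0.19, edgeR adjusted p = 0.420). Prrx2, its paralogue, stood at 44.0 ± 7.36 and 52.4 ± 3.37 CPM (log2 fold change 0.24, edgeR adjusted p = 0.581). Within libraries, the log2 ratio of Prrx1 to Prrx2 was 1.57, 2.03 and 1.58 in sham and 1.20, 0.87 and 1.52 in overloaded libraries. The ratios did not overlap, by a small margin, and their means differed by -0.53 (exact two-sided permutation p = 0.1, adjusted 0.3).

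Osr1 (ENSMUSG00000048387, chromosome 12, 9570116 to 9581500), a factor that marks embryonic FAPs, stood at 31.5, 22.8 and 35.0 CPM in sham and at 2.89, 28.8 and 30.1 CPM in overloaded libraries. Overloaded library 1 stood apart with 3 counts, against 23 and 26 in overloaded libraries 2 and 3, although it had the largest total of all. The log2 fold change was -0.59 (95% interval -1.64 to 0.46, edgeR adjusted p = 0.453) and -0.0064 without overloaded library 1. Osr2, the paralogue, stood at 46.5 ± 18.2 and 28.2 ± 5.40 CPM (log2 fold change -0.74, unadjusted p = 0.0356 and adjusted p = 0.0989 by edgeR). Osr2 did not stand apart in overloaded library 1, where it had 24 counts against 27 and 24. The log2 ratio of Osr1 to Osr2 therefore differed by -0.39 with all libraries (exact two-sided permutation p = 0.9) and by 0.53 without overloaded library 1.

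Snai2 (ENSMUSG00000022676, chromosome 16, 14705852 to 14709385) stood at 18.6, 27.0 and 30.9 CPM in sham and at 12.5, 18.8 and 9.25 CPM in overloaded libraries. The groups overlapped only in that overloaded library 2 was level with sham library 1, and with 49 and 36 counts the interval was wide: the log2 fold change was -0.92 (95% interval -1.76 to -0.07, unadjusted p = 0.0406 and adjusted p = 0.109 by edgeR). It was not called in any of the 14 alternatives that tested it, with adjusted p between 0.0721 and 0.555. Snai1, the paralogous Snail repressor, stood at 21.5, 18.7 and 17.5 CPM in sham and at 19.2, 7.52 and 23.1 CPM in overloaded libraries (log2 fold change -0.19, edgeR adjusted p = 0.797). The log2 ratio of Snai2 to Snai1 differed by -0.58 and overlapped between the groups (exact two-sided permutation p = 0.6, adjusted 0.9). Snai3 had 0 counts in every library.

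The zinc finger homeobox repressors Zeb1 and Zeb2, which act beside Snail factors, differed in call. Zeb1 stood at 279, 299 and 402 CPM in sham and at 160, 166 and 164 CPM in overloaded libraries, and fell by 1.0 on the log2 scale (SE 0.21, adjusted p = 0.000572 by edgeR), called in all 15 alternatives. Zeb2 stood at 294 ± 44.4 and 258 ± 23.0 CPM and was not called (log2 fold change -0.19, edgeR adjusted p = 0.540). The difference between Zeb1 and Zeb2 was not tested. Of 15 paralogues and partners in all, 11 were tested: 2 rose (Runx2 and Cbfb), 2 fell (Tcf4 and Zeb1) and 7 were not called, with a median log2 fold change of -0.07. The 4 called of 11 are near the 29.3% called among all tested genes.

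Tcf21 (ENSMUSG00000045680, chromosome 10, 22817281 to 22820174), a factor of fibroblasts in heart and viscera, held 1, 0 and 2 counts in the sham and 0, 1 and 0 counts in the overloaded libraries. At 3 counts against 1, both groups were at or under the floor of 3 counts, and no difference was detectable at this depth. Tcf15, a basic helix-loop-helix gene of the somite, held 50 and 22 counts in the sham and overloaded groups but was uneven, with 21, 2 and 27 counts in sham libraries, and did not pass the filter for testing.

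**Figure D3:**
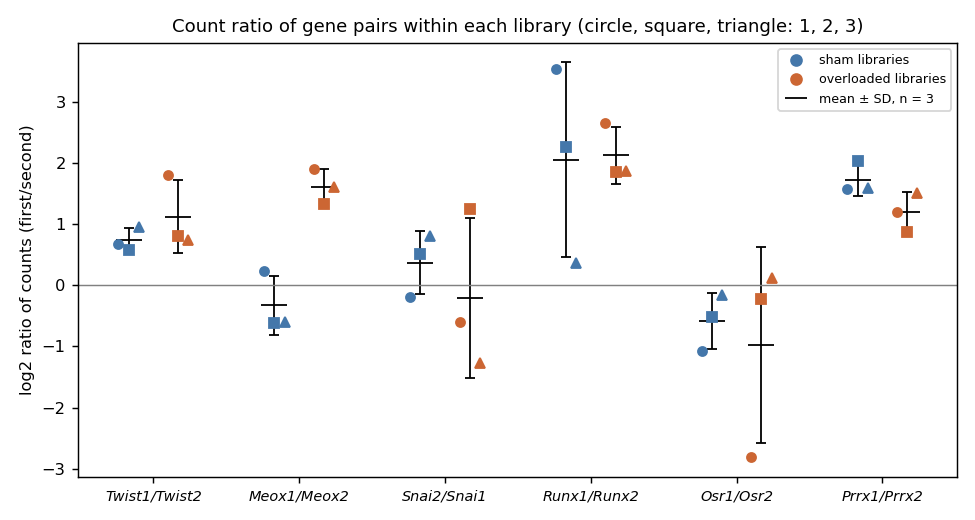
Log2 ratio of the counts of 2 related genes (vertical axis) within each library for 6 pairs, with the mean and SD of each group. The ratio of Meox1 to Meox2 lay between -0.62 and 0.23 in sham and between 1.33 and 1.90 in overloaded libraries, and 4 of the 6 pairs overlapped between the groups.

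The ratio of Runx1 to Runx2 was the most variable in sham libraries, at 3.53, 2.25 and 0.36, against 2.65, 1.85 and 1.86 in overloaded libraries. The spread came from Runx2, with 5, 8 and 31 counts in sham libraries. The mean difference of 0.072 (exact two-sided permutation p = 1) moved between -0.77 without sham library 3 and 0.81 without sham library 1, so that unequal change of the pair was neither seen nor measurable with this spread.

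Other transcription factors of mesenchymal cells were compared as a list. Of 24 on the list, 20 were tested: 10 fell, 1 rose and 9 were not called, beside 14.3% of all tested genes called lower and 15% called higher. They had a median log2 fold change of -0.64, beside -0.02 for all genes tested and -0.10 for the 9 factors above. The number lower was 5 without sham library 3, 6 without overloaded library 1, 5 with no filter on low counts and 3 with the receptor read covariate. Zfhx4, a large zinc finger homeobox gene, stood at 176, 172 and 157 CPM in sham and at 53.9, 40.1 and 38.2 CPM in overloaded libraries, and fell by 1.92 on the log2 scale (SE 0.25, adjusted p = 5.59e-07 by edgeR). Its libraries were tightly grouped, and it was called in all 15 alternatives.

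The early B cell factor genes, which in mesenchyme are linked to fat and skeletal lineages, fell together. Ebf2 fell by 1.20 on the log2 scale (SE 0.24, adjusted p = 0.000285 by edgeR) from 159 ± 14.1 to 68.7 ± 13.4 CPM. Ebf3 fell by 1.33 (SE 0.28, adjusted p = 0.000477 by edgeR) from 98.6 ± 12.4 to 39.2 ± 11.1 CPM. Both were called in all 15 alternatives. Tcf7l2, a mediator of Wnt signalling that marks muscle connective tissue fibroblasts, stood at 368, 305 and 307 CPM in sham and at 125, 197 and 145 CPM in overloaded libraries. It fell by 1.08 (SE 0.22, adjusted p = 0.000359 by edgeR), and its adjusted p was 0.101 with the receptor read covariate. The single factor of this list that rose was the forkhead repressor gene Foxp1, at 145 ± 10.2 and 247 ± 58.0 CPM, with a rise of 0.76 on the log2 scale (SE 0.22, adjusted p = 0.00970 by edgeR), not called without overloaded library 3 or with the covariate (0.247).

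**Figure D4:**
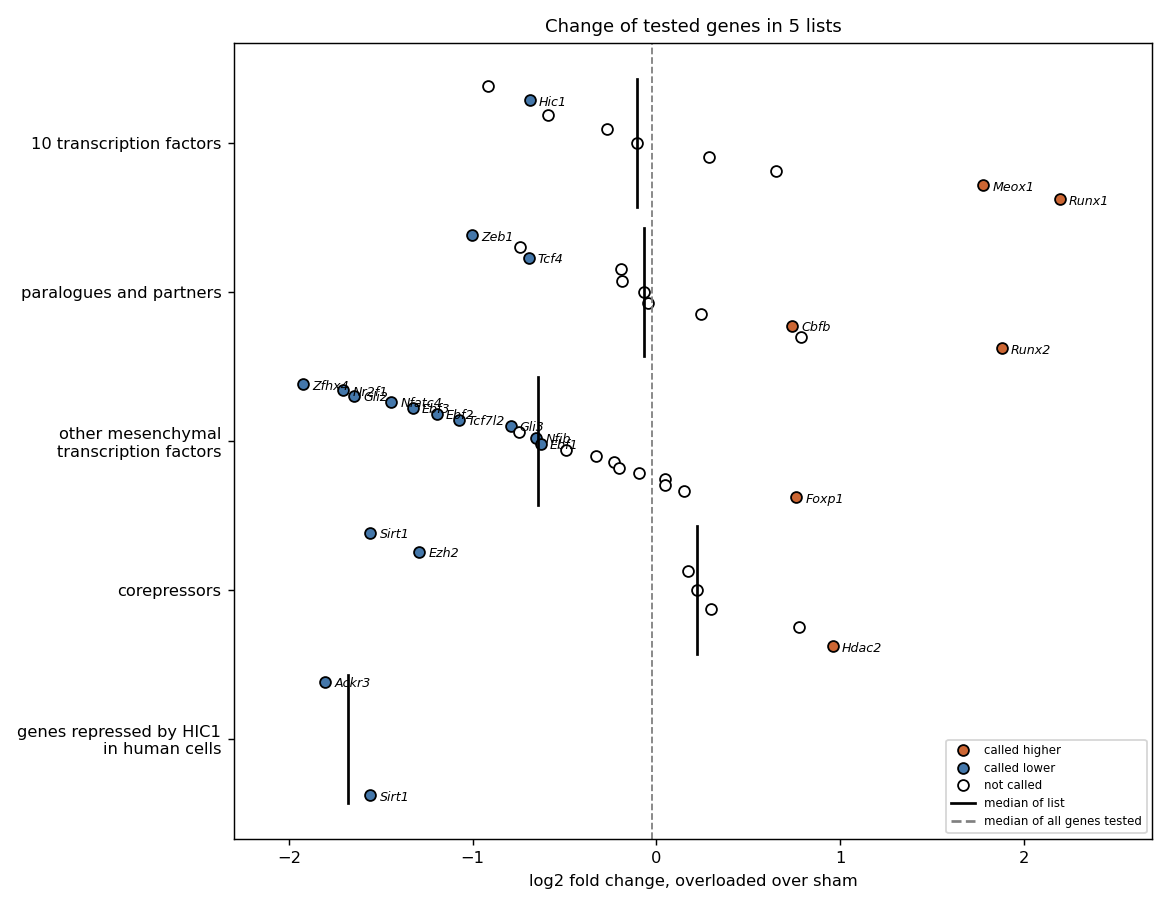
Log2 fold change, overloaded over sham (horizontal axis), of every tested gene in the 10 factors and 4 related lists; filled points are called, black lines are list medians and the dashed line is the median of all genes tested. Runx1, Runx2 and Meox1 lay furthest to the right and Zfhx4 furthest to the left, and the other mesenchymal factors had a median of -0.64.

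Markers of other cell types were summed in each library. Myogenic markers (Pax7, Myf5, Myod1, Des, Cdh15 and Myog) summed to 20.0 to 43.6 CPM in sham and 10.4 to 25.1 CPM in overloaded libraries, most of it Des, with Myod1 at 0 counts. Tenocyte markers summed to 40.4 to 55.8 and 42.3 to 91.4 CPM, highest in overloaded library 3. That library also held the highest levels of Runx1 and Meox1. By library the tenocyte sums were 55.8, 47.7 and 40.4 CPM in sham and 42.3, 50.2 and 91.4 CPM in overloaded libraries (exact two-sided permutation p = 0.6). Of these markers, Fmod and Kera were not called. Scx, with 4 and 21 counts in the sham and overloaded groups, Tnmd (8 and 17) and Mkx (4 and 4) were not tested. Pericyte and smooth muscle markers summed to 99.6 to 175 and 98.3 to 142 CPM. Endothelial markers summed to 122 to 216 CPM in sham and 33.5 to 71.5 CPM in overloaded libraries (exact two-sided permutation p = 0.1), most of it Tek in sham. Tek, a receptor for angiopoietins, was called lower, from 119 ± 11.9 to 27.0 ± 4.18 CPM, a fall of 2.13 on the log2 scale (SE 0.27, adjusted p = 5.59e-07 by edgeR). No other endothelial marker was called. Flt1 was tested (log2 fold change -0.49, edgeR adjusted p = 0.778). Too low to test were Pecam1, with 13 and 10 counts in the sham and overloaded groups, Kdr (9 and 12), Cdh5 (6 and 7) and Emcn (4 and 6). Schwann cell markers reached at most 8.30 CPM, with Sox10 at 0 counts. Muscle fibre markers summed to 35.8 to 56.0 CPM in sham and 21.2 to 30.1 CPM in overloaded libraries (exact two-sided permutation p = 0.1). The part of any of these cell types in the levels of the factors was not tested.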

How the data were processed

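RNA was measured in 3 sham and 3 overloaded libraries of sorted Pdgfra+ cells. The deposited table holds raw, unnormalised counts, as whole numbers. It was made on GRCm38, per the submitters' processing notes. The tools these notes name include featureCounts 2.0.1, HISAT2 2.2.1, DESeq2 1.28.1 and Trim Galore 0.6.6. The strand setting and the handling of molecular identifiers were not given in the sources used here. Floors cover counting error only. Without a stated strand setting, reads of overlapping genes cannot be told apart. In GENCODE M21, which held all 54100 identifiers, exons of 2 of the 10 factors, Twist2 and Runx1, overlapped another gene, which had 5 and 0 counts in all libraries together. So did 21 of all 60 genes listed, with 39 counts in the genes overlapping Zeb1 and Nr2f1 and 12 in that overlapping Runx2.

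The counts were tested with edgeR 4.0.16 in R 4.3.3 (quasi-likelihood F test, robust dispersions, TMM scaling), on the 7207 genes kept by filterByExpr (minimum count 10, minimum total 15). The SE is the log2 fold change divided by the square root of F, and 95% intervals use a normal approximation. CPM were computed from TMM-scaled counts of the tested genes. The test was checked on simulated counts of 7207 genes, of which 200 were changed by a known fold. It recovered 60 of the 200 at 2-fold, with 2 false calls, and 186 at 4-fold, with 8 false calls. Most changes of 2-fold were thus missed in the simulation, where all genes shared the same dispersion. In the data 2111 genes were called, many more than the 200 changed there, so the share missed may differ. A gene that was not called may still have changed, and its 95% interval gives the range. That interval lay within 2-fold either way for Prrx1, Meox2 and Twist2, and reached past 2-fold for Osr1, Twist1 and Snai2. Libraries of 1 group differed by more than sampling noise (chi-square per degree of freedom 3.75 to 6.61), and none was a duplicate. The 10 factors, the lists, the letters searched in promoters and the tests were chosen with earlier results of these data known. All 10 factors are named, with up to 4 called genes of each list in order of adjusted p, the paralogues compared and any gene that a count of 5 or fewer holds; Tcf3, Tcf12, Msc, Zeb2, Ctbp1, Tcf15, Epha2, Efna1, Hic2, Runx3 and Snai3, and the genes of the closing observations, were added after their values were seen.

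Alternatives were DESeq2 1.42.0, limma-voom (limma 3.58.1), RLE factors, library size only, no filter, a minimum count of 30, the replicate number as a block, thinning to the smallest library, the share of olfactory and vomeronasal receptor reads as a covariate, and leaving out each library. For the ratios, 2 counts were added in place of 0.5. Some genes of the lists are not reported here.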

Additional observations from a re-analysis of the deposited data

How the results depend on the processing

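Over the 15 alternatives, Runx1 and Meox1 were called higher in each, with log2 fold changes of 2.01 to 2.40 and 1.51 to 2.2. Scaling by RLE factors or library size only, DESeq2, limma-voom and thinning left 2 factors higher and 1 lower. The log2 fold change of Hic1 was -0.61 and not called with no filter on low counts, and ranged from -0.83 to -0.52 when 1 library was left out. That of Twist1 was 0.64 and called with a minimum count of 30, and ranged from 0.54 to 0.77 with 1 library left out. That of Meox2, never called, was 0.069 with the receptor read covariate and ranged from -0.26 to 0.066 with 1 library left out, turning direction without sham replicate 2 (0.066) and without overloaded replicate 1 (0.052). The causes were not tested. Genes called over the whole table numbered 2111, and 869 with the receptor read covariate. The receptor share was itself lower on average in overloaded libraries. With it in the fit, the SE of Meox1 was 0.40, beside 0.28 without it. Why fewer genes were called was not tested. Osr1 and Snai2 were too low to test with a minimum count of 30. The replicate number as a block gave 2036 genes and 3 of the factors, and changed no call among the factors. Deviations of samples with the same number correlated only weakly across genes (0.014 to 0.022), although each sample correlated best with its own number. With 3 libraries in each group, these values cannot decide whether libraries of the same number were paired. Adding 2 counts in place of 0.5 moved no ratio by more than the spread between libraries. Depth limits the low genes: Tcf21, with at most 2 counts in a library, could not be tested.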

Other observations

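The list of other mesenchymal transcription factors held further genes called lower in overloaded FAPs. The Hedgehog pathway effectors Gli2 (log2 fold change -1.65, SE 0.56, adjusted p = 0.0262 by edgeR) and Gli3 (-0.79, SE 0.29, adjusted p = 0.0344) were among them, at 34 and 15 counts and at 138 and 111 counts in sham and overloaded libraries. Gli2 was called in 5 of the 13 alternatives that tested it and Gli3 in 6 of 15. Gli1, a gene that Hedgehog signalling induces, had 8 and 2 counts and was not tested. The nuclear receptor gene Nr2f1 was lower at 7.35 ± 2.36 against 24.5 ± 1.38 CPM (log2 fold change -1.71, SE 0.48, adjusted p = 0.00684 by edgeR) and was called in 13 of 14 alternatives, whereas its paralogue Nr2f2 stood at 145 ± 36.2 and 149 ± 17.5 CPM and was not called. The difference between the paralogues was not tested.

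The nuclear factor I gene Nfib was lower by 0.66 on the log2 scale (SE 0.20, adjusted p = 0.0111 by edgeR) and was called in 11 of 15 alternatives (highest adjusted p 0.151), while Nfia (-0.33) and Nfix (-0.23) were not called. Ebf1, the paralogue of Ebf2 and Ebf3, had a log2 fold change of -0.63 (SE 0.20, adjusted p = 0.0155 by edgeR) and was called in 9 of 15 alternatives. Nfatc4, a calcium-responsive factor gene, had 37 and 19 counts (log2 fold change -1.44, SE 0.55, adjusted p = 0.0466 by edgeR) and was called in 4 of 13 alternatives.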
